A study of Danio rerio with 23 samples.

Results

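GLO1KO larvae, in which glo1 is disrupted and akr1a1a is intact, were compared with WT larvae by RNA sequencing. The comparison used 12 of the 23 libraries of the series, the 6 labelled GLO1KO and the 6 labelled WT, and covered every gene that passed a filter on low counts, which was 19758 of the 22856 genes listed. Each library came from 1 clutch of 20 whole larvae at 96 hpf (hours post fertilization) of the Tg(fli1:EGFP) strain, which carries a green reporter in its blood vessels, and no larva was treated. GLO1KO fish were made with CRISPR/Cas9. Wildtype and DKO lines for experimental use were both bred from double heterozygotes, the offspring of GLO1KO and AKR1A1AKO fish. The sources used here do not name the line of the sequenced WT clutches. Nor do they give the kinship of the GLO1KO line to that wildtype line or its number of founder fish. The loss of glo1 and other differences between the lines therefore cannot be told apart. Libraries of AKR1A1AKO (n = 5, akr1a1a disrupted) and DKO larvae (n = 6, both genes disrupted) of the same strain served to ask whether a difference recurs when glo1 is lost without akr1a1a.

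Glyoxalase 1, the product of glo1, works with glyoxalase 2 and glutathione to turn methylglyoxal (MG), a reactive by-product of glycolysis, into D-lactate. MG that escapes this route binds arginine and lysine residues of proteins. Aldo-keto reductases and aldehyde dehydrogenases are other routes by which cells clear MG and related aldehydes. At 96 hpf the larva still draws on its yolk while the liver, the exocrine pancreas, the gut and the photoreceptors of the retina take on their functions.

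The GLO1KO libraries held 34316507 to 35234918 counts and the WT libraries 35164298 to 36804421, and the labels name neither a batch nor a date. Levels are given as CPM, counts per megacount of the library after TMM scaling, which keeps a few abundant genes from setting the library size. In a principal component analysis of the 12 libraries, PC1 held 52.4% of the variance and separated the genotypes. The GLO1KO libraries scored 84.2 to 111.9, whereas the WT libraries ran from -167.6 to -47.9 with WT replicates 1 and 2 at the far end. The WT scores followed the order of the replicate numbers, so PC1 also held variation within WT. Correlations between libraries were 0.987 to 0.992 within GLO1KO, 0.972 to 0.993 within WT and 0.920 to 0.975 between the genotypes.

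The targeted gene came first. glo1 (listed as GLO1, ENSDARG00000068978) ran from 73.5 to 87.1 CPM (median 83.8) in the WT libraries and from 2.85 to 3.45 CPM (median 3.33) in the GLO1KO libraries. The change was -4.65 on the log2 scale, with a standard error of 0.068 and an adjusted p of 8.13e-16 by the quasi-likelihood test of edgeR. No GLO1KO library came near the lowest WT library, and the glo1 level matched the genotype label of all 12 libraries. The same fall was seen when akr1a1a was also lost, with a log2 fold change of -4.53 in DKO against AKR1A1AKO.

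A gene was called when its p, adjusted by Benjamini-Hochberg, was below 0.05 and its level changed by more than 1.5 times. By this rule 1353 genes (6.85% of those tested) rose and 3488 genes (17.7%) fell in GLO1KO larvae, together 24.5%. Over all genes the median change was -0.005 on the log2 scale. With scaling by library size alone this median moved to -0.13, and 761 genes rose and 4431 fell, so directions here are relative to the TMM scaling. Without the fold change threshold, 6036 genes were higher and 6424 lower. The lowest library of one genotype lay above the highest of the other for 39.6% of all genes tested, with 19.4% higher and 20.1% lower in GLO1KO larvae. Spread within WT was part of the picture. Of genes with at least 0.5 CPM in every WT and 0.1 CPM in every GLO1KO library, 19.7% had WT replicates 1 and 2 as the highest WT pair. Among those called lower this share was 48.8%, and among those called higher 2.16%.

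The genes that fell most included several of the liver and the absorptive gut. After glo1, the largest fall among genes with a symbol, a mean above 1 on the log2 CPM scale and ranges apart was that of the carboxylesterase gene ces2b (ENSDARG00000101726). It ran from 16.4 to 134.6 CPM (median 26.4) in WT and from 1.69 to 3.16 CPM (median 2.61) in GLO1KO larvae, a log2 fold change of -4.24 ± 0.538 (SE, adjusted p = 1.05e-05). DGAT2 (ENSDARG00000018846), which makes triglyceride, fell by 4.23 on the log2 scale. NPC1L1 (ENSDARG00000099558), through which the gut takes up cholesterol, fell by 3.60, and the brush-border lactase gene LCT (ENSDARG00000060671) by 3.74. These genes shared a wide spread within WT, with WT replicate 1 far above WT replicates 3 to 6, but their WT and GLO1KO ranges did not overlap. A1CF (ENSDARG00000002968), the partner of the apolipoprotein B mRNA editing enzyme in mammals, fell by 3.54, from a WT range of 13.1 to 52.9 CPM to 1.08 to 3.58 CPM. The nucleoside transporter gene SLC28A2 (ENSDARG00000060879) fell by 3.38. The complement factor H-like gene cfhl2 (ENSDARG00000103760) fell by 3.91, from 5.07 to 12.5 CPM in WT to 0.175 to 0.774 CPM. The remaining genes of this group were vwa11 (ENSDARG00000098805), the clone-named gene ENSDARG00000070918, si:ch1073-13h15.3 (ENSDARG00000099525) and the cartilage aggrecan gene acanb (ENSDARG00000045799), with log2 fold changes of -4.08, -4.06, -3.75 and -3.41.

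The genes that rose most were fewer and rose less. The largest rise was that of cxcl8b.1 (ENSDARG00000102299), an interleukin-8-type chemokine that attracts neutrophils, from 0.854 to 1.62 CPM (median 1.29) in WT to 3.25 to 22.8 CPM (median 6.71) in GLO1KO larvae. Its log2 fold change was 3.04 ± 0.457 (SE, adjusted p = 4.67e-05). GLO1KO replicates 1 and 4, at 17.9 and 22.8 CPM, stood above the other 4 GLO1KO libraries. MMP9 (ENSDARG00000042816), a gelatinase released at wounds and by leukocytes, ran from 2.59 to 5.49 CPM (median 3.32) in WT and from 11.9 to 31.7 CPM (median 16.4) in GLO1KO larvae, a log2 fold change of 2.43 ± 0.262 (SE, adjusted p = 2.51e-06). Its highest values also came from GLO1KO replicates 1 and 4, at 31.7 and 30.4 CPM. The transglutaminase-like gene tgm5l (ENSDARG00000098837) followed the same pattern, with 7.36 and 6.87 CPM in those 2 libraries, 1.97 to 3.45 CPM in the other 4 and a log2 fold change of 1.76. CARD9 (ENSDARG00000067672), which in mammals passes signals from receptors for fungal sugars, rose by 1.65, from 0.642 to 1.18 CPM to 2.27 to 4.33 CPM.

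Other genes in this group had no such split between GLO1KO libraries. UBTD1 (ENSDARG00000007382), a ubiquitin-domain gene, rose from 14.9 to 26.4 CPM (median 22.7) in WT to 58.6 to 72.7 CPM (median 62.8) in GLO1KO larvae, a log2 fold change of 1.54. The pineal opsin gene parapinopsinb (ENSDARG00000044672) rose by 1.51 on the log2 scale. Genes without an assigned function were zgc:194659 (ENSDARG00000079347) at a log2 fold change of 2.08, si:dkey-27n6.9 (ENSDARG00000103306) at 1.77, si:ch73-308m11.1 (ENSDARG00000039752) at 1.72, si:dkey-97i18.5 (ENSDARG00000090352) at 1.59 and si:ch211-202f3.3 (ENSDARG00000052917) at 1.52. In all of these the lowest GLO1KO library was above the highest WT library. The remaining gene, si:dkeyp-2e4.3 (ENSDARG00000095283), lies near glo1 and is described with its neighbours.

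**Figure D1:**
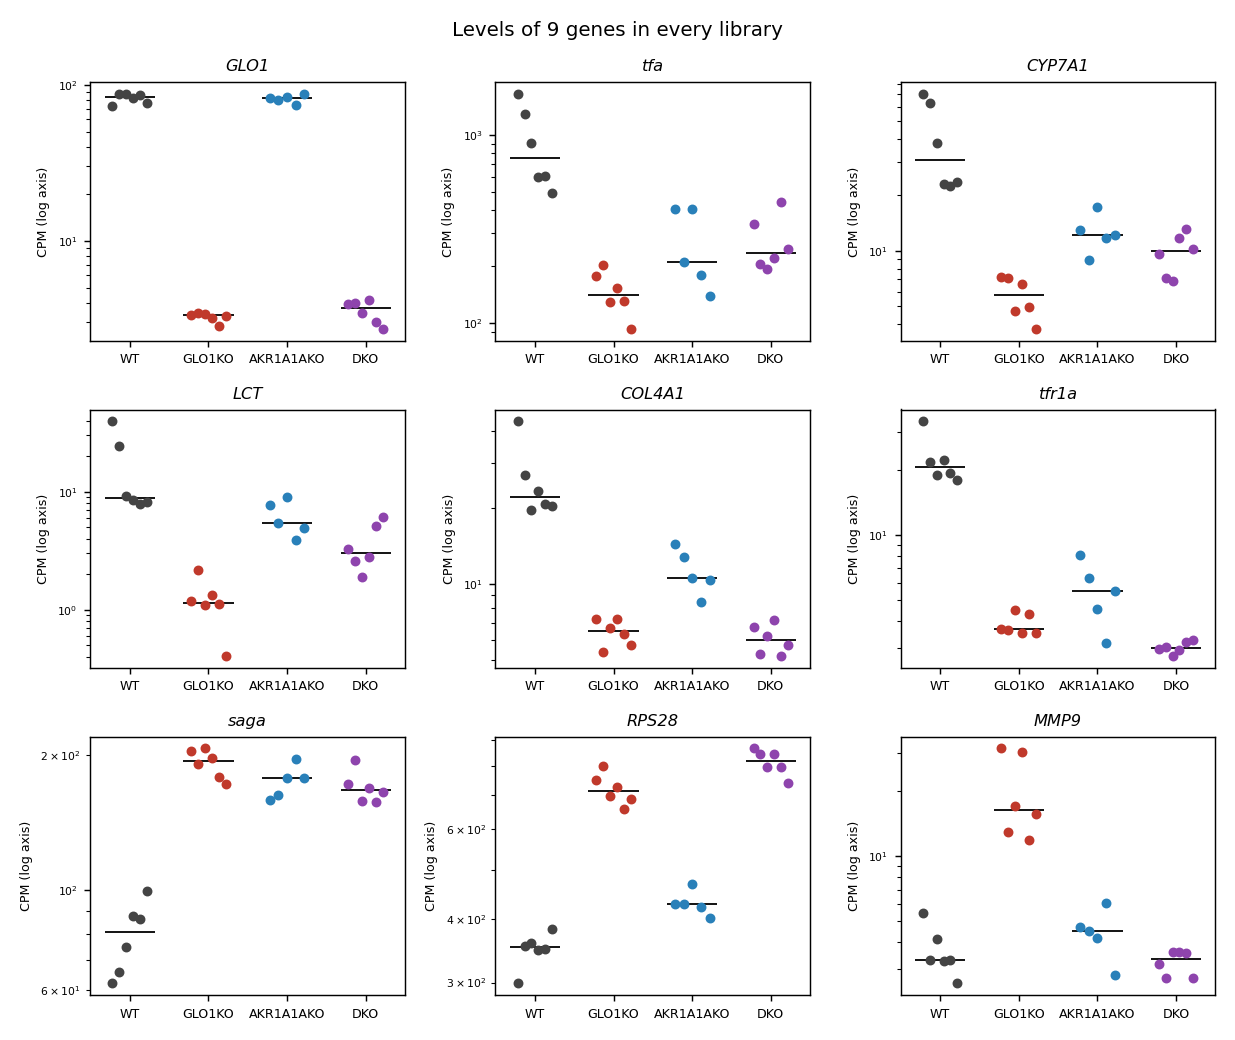
CPM on a log axis of 9 genes in every library of the 4 genotypes, with 1 point per library and a line at the group median. GLO1 is low in GLO1KO and DKO libraries. RPS28 is high in both, with AKR1A1AKO libraries between them and the WT libraries. MMP9 is high in GLO1KO libraries alone (11.9 to 31.7 CPM). For tfa, CYP7A1, tfr1a and saga the WT libraries stand apart from all 3 mutant genotypes.

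To place the genes, 35 lists of genes of a pathway or cell type were counted. The lists were drawn up with earlier results of these data known. Each is read by its counts and its median beside those of all genes tested, of which 6.85% rose and 17.7% fell.

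The lists of the liver and the digestive organs had the medians farthest from 0. Hepatocytes make most plasma proteins, apolipoproteins and bile acids, and the exocrine pancreas and gut make and absorb what digestion needs. Of 82 tested genes of liver-secreted and lipid transport proteins, 66 fell and 2 rose in GLO1KO larvae (80.5% called lower, against 17.7% of all genes), with a median log2 fold change of -1.64. Of 59 tested genes of the exocrine pancreas and intestinal digestion, 45 fell and 2 rose, with a median of -1.69. Whether the larvae had fewer of these cells or less RNA per cell cannot be told apart in bulk samples. No member of either list was at 0 counts in all 12 libraries.

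In the liver list, tfa (ENSDARG00000016771), the serum transferrin gene, ran from 494 to 1650 CPM (median 756) in WT and from 93.1 to 203 CPM (median 142) in GLO1KO larvae, a log2 fold change of -2.64 (adjusted p = 2.66e-06). CYP7A1 (ENSDARG00000069018), the rate-limiting enzyme of bile acid synthesis, ran from 22.3 to 70.29 CPM (median 30.8) in WT and from 3.78 to 7.21 CPM (median 5.78) in GLO1KO larvae, a log2 fold change of -2.81 (adjusted p = 3.40e-06). The liver fatty acid-binding protein gene fabp10a (ENSDARG00000038439), a hepatocyte marker, fell less, from 117 to 212 CPM to 29.7 to 79.7 CPM, with a log2 fold change of -1.4. Ranges of all 3 genes were apart. The plasma protein genes itih3b.1 (ENSDARG00000102722) and itih3b.2 (ENSDARG00000100406) fell by 3.17 and 2.77 on the log2 scale, and ces2b, described above, belongs to this list too. The members that rose were fabp10b (ENSDARG00000091101), at a log2 fold change of 0.85, and the complement gene c3a.4 (ENSDARG00000093198), at 0.90 with at most 0.843 CPM in any library. The call of c3a.4 was lost with limma-trend, with scaling by library size alone and when WT replicate 4 or 6 or GLO1KO replicate 3 or 6 was left out.

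Among digestive genes, prss59.1 (ENSDARG00000079274), which encodes a pancreatic trypsin, ran from 30.5 to 172 CPM (median 42.3) in WT and from 5.85 to 31.0 CPM (median 17.6) in GLO1KO larvae. Its log2 fold change was -1.96 (adjusted p = 0.00201), although the highest GLO1KO library exceeded the lowest WT library. SLC15A1, the peptide transporter of the intestinal brush border, is listed as 2 genes (ENSDARG00000044528 and ENSDARG00000100315) that fell by 2.86 and 2.73 on the log2 scale and may share reads. The elastase gene cela1.4 (ENSDARG00000043171) fell by 2.83. The members that rose were transcription factors of endocrine cells and neurons. NEUROD1 (ENSDARG00000019566) went from 139 to 197 CPM in WT to 252 to 293 CPM and INSM1 (ENSDARG00000091756) from 35.1 to 53.7 CPM to 67.2 to 76.3 CPM, with log2 fold changes of 0.61 and 0.63. Neither gene kept its call with scaling by library size alone or without WT replicate 1, at 0.56 each, and NEUROD1 did not without GLO1KO replicate 6, at 0.58.

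The level of both lists varied widely within WT. The summed CPM of the liver list was 13990 and 11420 in WT replicates 1 and 2, 5615 to 8117 in the other 4 WT libraries, and 1871 to 3371 in the GLO1KO libraries. For the digestive list it was 4601 and 3445 in WT replicates 1 and 2, 1744 to 1863 in the other 4, and 815 to 1589 in GLO1KO. Thus no GLO1KO library reached the lowest WT library in either sum. When WT replicates 1 and 2 were left out together, 63 liver genes still fell with a median of -1.22, and 39 digestive genes with a median of -1.04. In AKR1A1AKO larvae the liver sum was 2970 to 5613 and in DKO larvae 4050 to 6227.

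**Figure D2:**
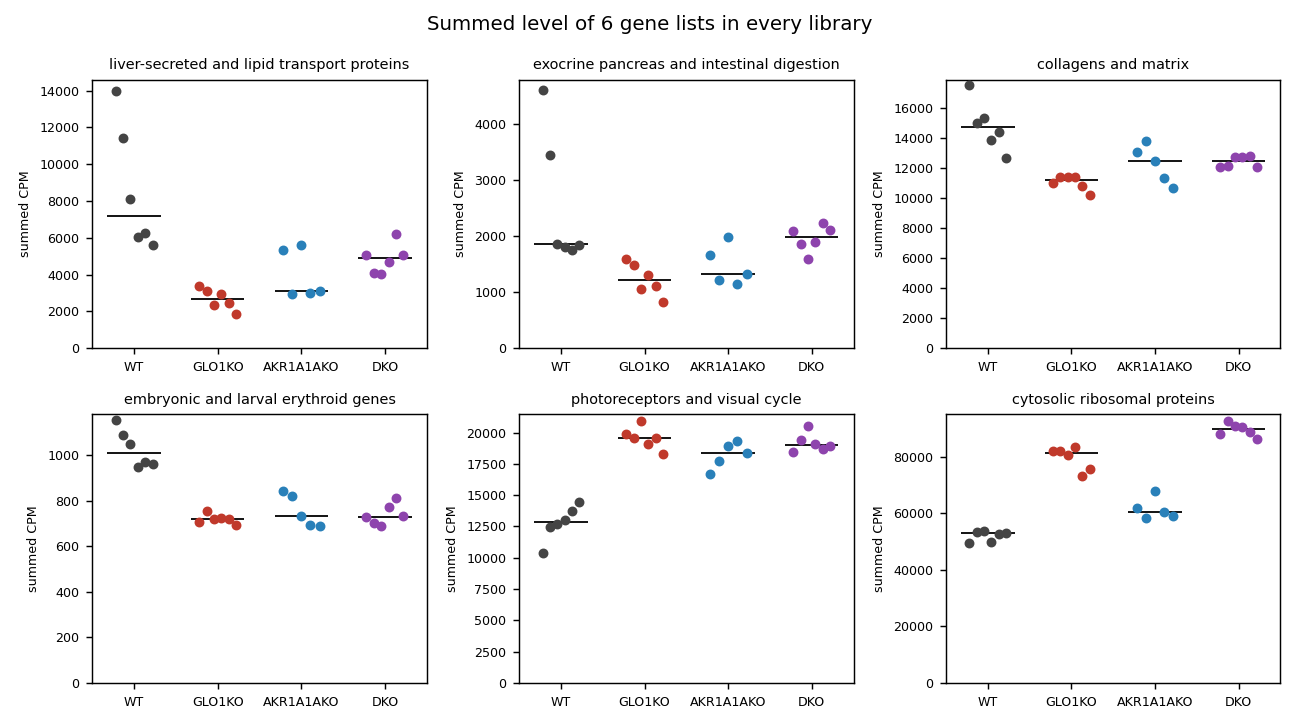
Summed CPM of 6 gene lists in every library of the 4 genotypes, with 1 point per library, a line at the group median and axes that start at 0. The liver list lies at 1871 to 3371 in GLO1KO and at 5615 to 13990 in WT libraries, and the ribosomal list lies at 73340 to 83550 in GLO1KO and at 49320 to 53830 in WT libraries.

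Among genes for glucose use, production and storage, those that fell included enzymes that the liver expresses. Of 81 tested genes of glycolysis, gluconeogenesis and glycogen, 23 fell (28.4%, against 17.7% of all genes), 3 rose and 55 were not called, with a median log2 fold change of -0.15. PCK1 (ENSDARG00000013522), the first committed enzyme of gluconeogenesis, ran from 130 to 414 CPM (median 170) in WT and from 25.7 to 89.7 CPM (median 58.4) in GLO1KO larvae, a log2 fold change of -1.95 (adjusted p = 1.90e-04). The glucose-6-phosphatase gene g6pc1a.1 (ENSDARG00000031616), which releases free glucose, fell by 2.5 on the log2 scale, and the liver glycogen synthase gene GYS2 (ENSDARG00000004904) by 2.06. UGP2 (ENSDARG00000005578), which makes the UDP-glucose used for glycogen, fell from 38.4 to 68.2 CPM to 11.3 to 15.0 CPM, a log2 fold change of -1.91. In each of these 4 genes the genotype ranges were apart.

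Insulin and arginine genes were of interest to the study. Of 72 tested genes of insulin and mTOR signalling, 10 fell and none rose (13.9% called lower, against 17.7% of all genes), and the median was 0.03. The 4 that fell most were the AMP-activated kinase subunit gene PRKAA2 (ENSDARG00000060641) at a log2 fold change of -1.83, FOXO1 (ENSDARG00000061549) at -1.66, the liver and gut transcription factor gene HNF4A (ENSDARG00000021494) at -1.24 and the adaptor gene shc2 (ENSDARG00000062080) at -1.18. Of 49 genes of arginine, urea and polyamine metabolism, 13 fell (26.5%, against 17.7% of all genes) and 2 rose, with a median of -0.06. Those that fell included the glutaminase gene GLS2 (ENSDARG00000069095) at -1.72, the agmatinase gene AGMAT (ENSDARG00000059700) at -1.60, the creatine kinase gene CKB (ENSDARG00000069752) at -1.47 and the polyamine acetyltransferase gene SAT1 (ENSDARG00000035652) at -1.24. They were taken for the size of their change, and 23 of the 49 genes lay above 0. The summed level of this list tended to be higher in GLO1KO libraries, at 5940 to 6362 CPM against 5428 to 5944 CPM in WT.

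A panel of genes for glucose, arginine and stress, chosen because RT-qPCR was run on them, had 10 members tested here. Of these 4 fell (40%, against 17.7% of all genes) and none rose. SLC2A2 (ENSDARG00000056196), the glucose transporter of liver and islet cells, fell from 15.1 to 32.1 CPM (median 18.7) in WT to 4.13 to 9.18 CPM (median 8.17) in GLO1KO larvae, a log2 fold change of -1.46 (adjusted p = 3.80e-05). The arginase gene ARG1 (ENSDARG00000057429) and the argininosuccinate synthase gene ASS1 (ENSDARG00000103044) fell by 0.97 and 0.69 on the log2 scale, with overlapping ranges. GYS1 (ENSDARG00000016875), the glycogen synthase of muscle and other tissues, was 84.3 to 109 CPM in GLO1KO against 138 to 158 CPM in WT larvae, a log2 fold change of -0.58 (adjusted p = 1.80e-06) that lay just under the fold change threshold. The stress transcription factor genes atf4a (ENSDARG00000111939) and atf4b (ENSDARG00000038141) had log2 fold changes of 0.30 and 0.26 (adjusted p = 6.93e-05 and 1.12e-04), with ranges apart but below the threshold. The values of ASL (ENSDARG00000033361), ODC1 (ENSDARG00000007377) and SLC2A8 (ENSDARG00000104278) were -0.22, 0.17 and -0.41, and none of the 3 was called.

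Among other enzymes that clear aldehydes no gene was called higher. Of 36 tested genes of MG and aldehyde detoxification, glo1 among them, 12 fell and none rose, with a median log2 fold change of -0.36 (33.3% called lower, against 17.7% of all genes). Without the fold change threshold 3 were higher, by at most 0.57, and 21 lower, beside 30.5% and 32.5% of all genes. HAGH (ENSDARG00000025338), which encodes glyoxalase 2, was 25 to 29.7 CPM in WT and 23.2 to 26.2 CPM in GLO1KO larvae, a log2 fold change of -0.10 (adjusted p = 0.139). The fatty aldehyde dehydrogenase gene aldh3a2b (ENSDARG00000029381) fell from 5.82 to 20.7 CPM (median 8.5) to 2.5 to 3.54 CPM (median 3.31), a log2 fold change of -1.79. ALDH8A1 (ENSDARG00000036776), an aldehyde dehydrogenase of the tryptophan breakdown route, fell by 1.48 on the log2 scale. The prostaglandin reductase-like gene ptgr1.2 (ENSDARG00000087017), which belongs to a family that reduces unsaturated aldehydes, fell by 1.26 with overlapping ranges. Without WT replicates 1 and 2, which were also highest in the summed level of this list, 7 of these 36 genes were called lower. In DKO against AKR1A1AKO 4 of the 36 rose and 2 fell (beside 3.76% and 8.11% of all genes), with a median of 0.19.

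Glutathione is the cofactor of glyoxalase 1, and genes of the glutathione and thioredoxin system were called lower about as often as all genes. Of 61 tested, 12 fell (19.7%, against 17.7% of all genes), 1 rose and 48 were not called, with a median of -0.28. Without the fold change threshold 31 of the 61 were lower and 10 higher, beside 32.5% and 30.5% of all genes. The gamma-glutamyltransferase gene ggt1b (ENSDARG00000018342), which breaks glutathione down outside cells, fell from 4.51 to 15.0 CPM to 0.378 to 1.4 CPM, a log2 fold change of -2.84. The glutathione transferase gene gstp1.1 (ENSDARG00000103019) fell by 2.81 on the log2 scale, TXNRD2 (ENSDARG00000075923), a thioredoxin reductase, by 1.54, and the extracellular superoxide dismutase gene SOD3 (ENSDARG00000070168) by 1.53.

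The cytosolic ribosome moved the other way, and as a whole. Of 73 tested genes of cytosolic ribosomal proteins, 48 rose and none fell (65.8% called higher, against 6.85% of all genes). The log2 fold changes of all 73 lay above 0, from 0.05 to 1.08, with a median of 0.68. RPS28 (ENSDARG00000035860), a protein of the small subunit, ran from 299 to 381 CPM (median 352) in WT and from 657 to 799 CPM (median 713) in GLO1KO larvae, a log2 fold change of 1.05 ± 0.06 (SE, adjusted p = 2.41e-08). The large subunit genes rplp2 (ENSDARG00000101406), RPL38 (ENSDARG00000006413) and RPL31 (ENSDARG00000053365) rose by 1.08, 1.01 and 1.01. RPL31 had the narrowest WT range of the 4, with 384 to 399 CPM in WT and 702 to 850 CPM in GLO1KO larvae. The summed level was 49320 to 53830 CPM in WT and 73340 to 83550 CPM in GLO1KO libraries. With scaling by library size alone the median was 0.56 and 31 genes were called higher. Ribosomal protein genes have many near-identical copies in the genome, and how the counting treated reads of several origins is not given in the sources used here.

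The mitochondrial ribosome and the rest of the expression machinery did not show a change of this size. Of 71 mitochondrial ribosomal protein genes 5 rose, with a median of 0.22, and of 104 splicing factor genes 7 rose, with a median of 0.26, shares close to the 6.85% of all genes. Without the fold change threshold 46 and 74 of them were higher and 5 and 7 lower, beside 30.5% and 32.5% of all genes. The summed mitochondrial ribosomal level was 1471 to 1609 CPM in WT and 1698 to 1862 CPM in GLO1KO libraries. For splicing factors it was 6073 to 6928 CPM and 7729 to 8207 CPM. MRPL2 (ENSDARG00000062568) rose by 0.79 on the log2 scale, mrpl58 (ENSDARG00000078835) by 0.71, mrpl52 (ENSDARG00000090568) by 0.70 and MRPS33 (ENSDARG00000020015) by 0.65. Among splicing factors srsf3a (ENSDARG00000100815) rose by 1.03, LSM2 (ENSDARG00000103066) by 0.87, rbm25a (ENSDARG00000039266) by 0.75 and LSM8 (ENSDARG00000091656) by 0.66. Calls of mrpl52, MRPS33 and LSM8 were lost with scaling by library size alone, and those of MRPS33 and rbm25a without WT replicates 1 and 2.

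Ribosome biogenesis and RNA polymerase genes had a median of -0.007, with 6 of 105 higher and 2 lower (5.71% and 1.9%, against 6.85% and 17.7% of all genes). The polymerase subunit genes POLR2K (ENSDARG00000075616), polr3glb (ENSDARG00000013734) and POLR2F (ENSDARG00000036625) rose by 0.89, 0.85 and 0.78, and the small subunit maturation gene NOB1 (ENSDARG00000016080) fell by 0.82. Of 83 oxidative phosphorylation genes, 5 rose and 2 fell (6.02% and 2.41%), with a median of 0.11. SDHD (ENSDARG00000055712), COX4I2 (ENSDARG00000022509) and atp5mea (ENSDARG00000078113), subunits of complexes II, IV and V, rose by 0.90, 0.86 and 0.83, and the complex I gene NDUFB11 (ENSDARG00000043467) fell by 0.71. Of 73 translation factor genes 2 rose (2.74%), EEF1D (ENSDARG00000030053) by 0.62 and EIF3F (ENSDARG00000077533) by 0.61. Both lost their call with scaling by library size alone, under which the medians of the oxidative phosphorylation and translation factor lists turned negative, to -0.02 and -0.01.

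The translation factor gene that fell was eif2ak2 (ENSDARG00000068729), which encodes the kinase PKR that halts translation on double-stranded RNA. It ran from 2.63 to 4.78 CPM (median 3.16) in WT and from 0.143 to 0.478 CPM (median 0.432) in GLO1KO larvae, a log2 fold change of -3.06 ± 0.226 (SE, adjusted p = 1.11e-07). The ranges lay far apart, and DKO libraries at 0.213 to 0.429 CPM were likewise below AKR1A1AKO libraries at 1.2 to 2.24 CPM, a log2 fold change of -2.50 in that comparison.

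Stress pathways were not raised as lists. Of 69 tRNA synthetase genes and ATF4 targets, which amino acid shortage induces, 1 rose and 6 fell (8.7%, against 17.7% of all genes), with a median of 0.02. The amino acid transporter gene SLC7A5 (ENSDARG00000099265) fell from 32.5 to 39.5 CPM (median 35.3) to 13.8 to 15.9 CPM (median 14.6), a log2 fold change of -1.27 ± 0.063 (SE, adjusted p = 1.46e-08). STC2 (ENSDARG00000102206) fell by 3.03 on the log2 scale, the mitochondrial one-carbon gene SHMT2 (ENSDARG00000104414) by 1.29 and the transsulfuration gene CBS (ENSDARG00000053500) by 0.97. Of 76 chaperone genes 14 fell and none rose, a share of 18.4% close to the 17.7% of all genes. Among them hsp90aa1.1 (ENSDARG00000010478), which muscle needs for myosin folding, fell from 80.9 to 100.3 CPM to 35.3 to 52.8 CPM, a log2 fold change of -0.98, the co-chaperone gene BAG2 (ENSDARG00000035005) fell by 1.94, the pancreatic disulfide isomerase gene pdia2 (ENSDARG00000018263) by 1.76 and the heat shock gene hsp70l (ENSDARG00000055723) by 0.98. Of 52 proteasome genes 2 rose and 1 fell (3.85% and 1.92%, against 6.85% and 17.7% of all genes). PSMC3IP (ENSDARG00000037892) rose by 0.72 and SEM1 (ENSDARG00000027899) by 0.60, and PSMD2 (ENSDARG00000099653) fell by 0.77. PSMC3IP carries the name pattern of the list but acts in meiotic recombination, and the call of SEM1 was lost when WT replicate 1 or 4 or GLO1KO replicate 1 or 2 was left out.

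Immune genes moved in both directions. Of 86 tested cytokine, chemokine and acute response genes 14 rose and 19 fell (16.3% higher, against 6.85% of all genes, and 22.1% lower, against 17.7%). The complement genes cfb (ENSDARG00000055278) and c3a.1 (ENSDARG00000012694) both fell by 2.67 on the log2 scale. The subunit genes of the transcription factor NF-kB, RELA (ENSDARG00000098696) and nfkb1 (ENSDARG00000105261), fell by 1.80 and 1.49, with ranges apart. RELA ran from 3.87 to 6.82 CPM in WT and from 1.04 to 1.73 CPM in GLO1KO larvae. By contrast the cytokine gene il1b (ENSDARG00000098700) rose by 1.38 and the collagenase gene mmp13a (ENSDARG00000012395) by 1.37, both at most 2.33 CPM in every WT and GLO1KO library and with overlapping ranges. Like cxcl8b.1 and MMP9, il1b was highest in GLO1KO replicates 4 and 1, at 2.06 and 1.85 CPM. When these 2 libraries were left out, 10 genes of the list rose and 20 fell.

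As a list, leukocyte markers did not follow cxcl8b.1, and neutrophil and macrophage markers were not counted apart. Of 45 tested neutrophil and macrophage markers 3 rose and 8 fell, shares close to those of all genes, and 1 of the 57 members listed was at 0 counts in all 12 libraries. Their summed CPM was 261 to 447 in GLO1KO and 396 to 630 in WT libraries, ranges that overlapped. The macrophage genes csf1ra (ENSDARG00000102986) and MPEG1 (ENSDARG00000043093) fell by 1.48 and 1.07, and the cytokine receptor gene il6r (ENSDARG00000104474) and the integrin gene itgb2 (ENSDARG00000016939) by 1.34 and 0.95. Of these 4, MPEG1 had overlapping ranges, and csf1ra was also counted in the list of pigment cells. They were taken for the size of their change, and no marker of the list rose by more than 0.82 on the log2 scale. Without WT replicates 1 and 2, 5 markers rose and 5 fell.

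Many genes of connective tissue were lower. Of 127 tested genes of collagens and matrix, 62 fell and none rose (48.8% called lower, against 17.7%) and 65 were not called, with a median log2 fold change of -0.58 and 117 genes below 0. The basement membrane collagen genes COL4A1 (ENSDARG00000055009) and COL4A2 (ENSDARG00000104110), chains of the same trimer, fell together. COL4A1 ran from 19.6 to 43.9 CPM (median 22.0) in WT and from 5.39 to 7.27 CPM (median 6.49) in GLO1KO larvae, a log2 fold change of -2.0 (adjusted p = 6.42e-07), and COL4A2 fell by 2.09. The short-chain collagen gene col8a1a (ENSDARG00000077403) fell from 24.5 to 45.9 CPM (median 39.1) to 4.79 to 6.01 CPM (median 5.32), a log2 fold change of -2.83 ± 0.133 (SE, adjusted p = 8.43e-09). FMOD (ENSDARG00000010294), a small proteoglycan of tendon, and VTN (ENSDARG00000055388), the plasma protein vitronectin that the liver makes, fell by 2.89 and 2.67. Without WT replicates 1 and 2, 53 of the genes were called lower.

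Some muscle genes fell. Of 97 tested genes of the sarcomere and calcium release, 27 fell (27.8%, against 17.7% of all genes) and 3 rose (3.09%, against 6.85%), with a median of -0.32. MYOM1 (ENSDARG00000104836), which holds myosin filaments together at the M line, ran from 152 to 249 CPM (median 174) in WT and from 39.9 to 51.8 CPM (median 48.2) in GLO1KO larvae, a log2 fold change of -1.95 ± 0.107 (SE, adjusted p = 1.97e-08). JPH1 (ENSDARG00000058603), which joins the membranes of the calcium release site, fell by 1.68, and the troponin genes TNNI2 (ENSDARG00000045592) and tnnc1a (ENSDARG00000011400) by 2.42 and 1.67. The summed level of the list did not separate the genotypes, with 92440 to 115600 CPM in GLO1KO and 98100 to 109800 CPM in WT libraries.

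Among photoreceptor genes of these whole larvae the direction was upward. More of these cells and more RNA per cell cannot be told apart in bulk samples. Photoreceptors turn light into a signal through opsins, transducin, a phosphodiesterase and cyclic nucleotide channels, and arrestins and guanylate cyclase activators reset them. Of 77 tested genes of photoreceptors and the visual cycle, 41 rose and 2 fell (53.2% called higher, against 6.85%), with a median of 0.61. The arrestin gene saga (ENSDARG00000012610) ran from 62.0 to 99.5 CPM (median 80.5) in WT and from 173 to 207 CPM (median 194) in GLO1KO larvae, a log2 fold change of 1.27 ± 0.1 (SE, adjusted p = 1.90e-07). The cone phosphodiesterase inhibitor gene pde6ha (ENSDARG00000102558) rose by 1.29, the synaptic calcium-binding protein gene CABP4 (ENSDARG00000105631) by 1.39 and the cyclase activator gene GUCA1A (ENSDARG00000100747) by 1.28. The summed level of the list was 10380 to 14450 CPM in WT and 18300 to 20920 CPM in GLO1KO libraries. It was lowest in WT replicate 1, the library with the highest liver sum, and without WT replicates 1 and 2 the count of genes called higher was 33.

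Lists of the lens and the nervous system held genes called in both directions. Of 55 lens genes 8 fell (14.5%, against 17.7% of all genes) and 2 rose, with a median of 0.06. The lens transcription factor gene HSF4 (ENSDARG00000013251) fell by 2.12, the lengsin gene LGSN (ENSDARG00000007715) by 1.23 and the lens filament gene BFSP2 (ENSDARG00000011998) by 1.09, whereas the crystallin gene crygm2f (ENSDARG00000078134) rose by 0.90. Without WT replicates 1 and 2, 5 lens genes fell and 3 rose. Of 157 genes of the synapse and neuronal excitability 32 fell (20.4%, near the 17.7% of all genes) and 21 rose (13.4%, against 6.85%), with a median of 0.15. Their summed level was higher in GLO1KO libraries, at 14650 to 15660 CPM against 10220 to 14410 CPM in WT. The members named here were taken for the size of their change, and all fell. No member of the list rose by more than 0.95 on the log2 scale. SYT2 (ENSDARG00000025206), a calcium sensor of fast transmitter release, fell from 16.3 to 25.1 CPM (median 20.3) to 6.57 to 7.82 CPM (median 7.33), a log2 fold change of -1.47. The GABA receptor gene gabra3 (ENSDARG00000090883) fell by 1.62, the neurotrophin receptor gene ntrk2b (ENSDARG00000098511) by 1.47 and the nicotinic receptor gene chrna7a (ENSDARG00000101702) by 1.44. Of 42 genes of astroglia and myelin 8 fell (19%, near the share of all genes) and 4 rose (9.52%, against 6.85%). The summed level was again higher in GLO1KO libraries, at 4424 to 4863 CPM against 3470 to 4139 CPM in WT, although the members named here fell. The GABA transporter gene SLC6A11 (ENSDARG00000087981) fell from 102 to 121 CPM to 42.1 to 57.3 CPM, a log2 fold change of -1.19, CLDN19 (ENSDARG00000044569) by 1.79, the water channel gene AQP4 (ENSDARG00000010565) by 1.38 and the myelin adhesion gene mag (ENSDARG00000104023) by 1.08.

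Among red cell genes, 16 of 32 tested fell (50%, against 17.7% of all genes), 2 rose and 14 were not called, with a median of -0.53 and a summed level of 694 to 754 CPM in GLO1KO against 947 to 1155 CPM in WT libraries. The transferrin receptor gene tfr1a (ENSDARG00000101322), through which red cell precursors take up iron, ran from 17.8 to 33.5 CPM (median 20.5) in WT and from 3.52 to 4.47 CPM (median 3.65) in GLO1KO larvae, a log2 fold change of -2.53 ± 0.147 (SE, adjusted p = 2.42e-08). Its copy tfr1b (ENSDARG00000077372) fell by 1.63, the anion exchanger gene SLC4A1 (ENSDARG00000024560) by 2.04 and the erythroid transcription factor gene klf1 (ENSDARG00000017400) by 1.76. RNA of tfa, which encodes the liver-made carrier that this receptor binds, fell as well, and the protein was not measured.

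Kidney and skin lists were called lower more often than all genes, of which 17.7% fell. Of 48 genes of podocytes and the pronephros 19 fell (39.6%) and none rose, with a median of -0.35. The adhesion and transport genes CDH17 (ENSDARG00000005112), atp1a1a.4 (ENSDARG00000001870), SLC20A1 (ENSDARG00000020114) and SLC4A2 (ENSDARG00000052330) fell by 1.27, 1.17, 1.44 and 1.35. CDH17, a cadherin of tubule and gut cells, ran from 79.4 to 181 CPM (median 97.5) in WT and from 34.1 to 57.8 CPM (median 46.9) in GLO1KO larvae. Of 37 genes of the epidermis and ionocytes 10 fell (27%) and none rose, but 3 without WT replicates 1 and 2. The keratin gene krt93 (ENSDARG00000044976) fell by 2.93, the desmosome gene DSP (ENSDARG00000076673) by 1.42 from a WT range of 45.7 to 74.3 CPM to 14.6 to 22.6 CPM, the carbonic anhydrase gene ca15a (ENSDARG00000015654) by 1.11 and the desmosome gene PKP1 (ENSDARG00000052705) by 0.75. PKP1 lost its call without WT replicate 1, at -0.52, and ca15a without WT replicates 1 and 2, at -0.58.

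Pigment, vessel and hypoxia lists differed in their share of lower genes, beside 17.7% of all genes. Of 28 pigment cell genes 10 fell (35.7%) and 1 rose, among them the melanin synthesis gene TYR (ENSDARG00000039077) by 1.17, the purine gene XDH (ENSDARG00000055240) by 1.73 and the carotenoid gene BCO1 (ENSDARG00000104256) by 1.15. Of 49 endothelial genes 6 fell (12.2%) and 1 rose. The vascular growth factor receptor gene KDR (ENSDARG00000017321) fell by 1.06, nrp1b (ENSDARG00000027290) by 1.23, ERG (ENSDARG00000077304) by 0.77 and angpt2b (ENSDARG00000053906) by 0.77, and the last of these lost its call without WT replicate 2 or GLO1KO replicate 1 or 5. Of 33 glucocorticoid and hypoxia response genes 11 fell (33.3%) and 4 rose, with the glucose transporter gene SLC2A1 (ENSDARG00000007412) going from 17.3 to 23.9 CPM to 5.13 to 8.32 CPM, a log2 fold change of -1.55. The matrix cross-linking gene loxl2a (ENSDARG00000044010) fell by 1.71, the oxygen sensor gene EGLN2 (ENSDARG00000062562) by 1.24 and igfbp1b (ENSDARG00000038666) by 1.15.

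Proliferation and clock genes changed little. Of 86 cell cycle and replication genes 2 rose and 3 fell (2.33% and 3.49%, against 6.85% and 17.7% of all genes), with a median of 0.03. The cyclin gene CCND2, listed as 2 genes (ENSDARG00000051748 and ENSDARG00000070408), fell by 1.23 and 1.15, and E2F1 (ENSDARG00000103868) by 0.68. RRM2 (ENSDARG00000020711), which makes deoxynucleotides, rose by 0.72 but not without GLO1KO replicate 4, at 0.58. Of 32 clock genes the melatonin synthesis gene aanat2 (ENSDARG00000079802) rose by 0.74 and CLOCK (ENSDARG00000011703) fell by 0.68, among 2 higher and 1 lower (6.25% and 3.12%). Of 49 immediate early genes 2 rose and 7 fell (4.08% and 14.3%, both below the shares of all genes). Among those that fell were MAFK (ENSDARG00000100947) at a log2 fold change of -1.36, KLF4 (ENSDARG00000079922) at -1.02, KLF9 (ENSDARG00000068194) at -0.88 and klf6b (ENSDARG00000038561) at -0.82. No gene of the 5 tested for the hatching gland and yolk was called.

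**Figure D3:**
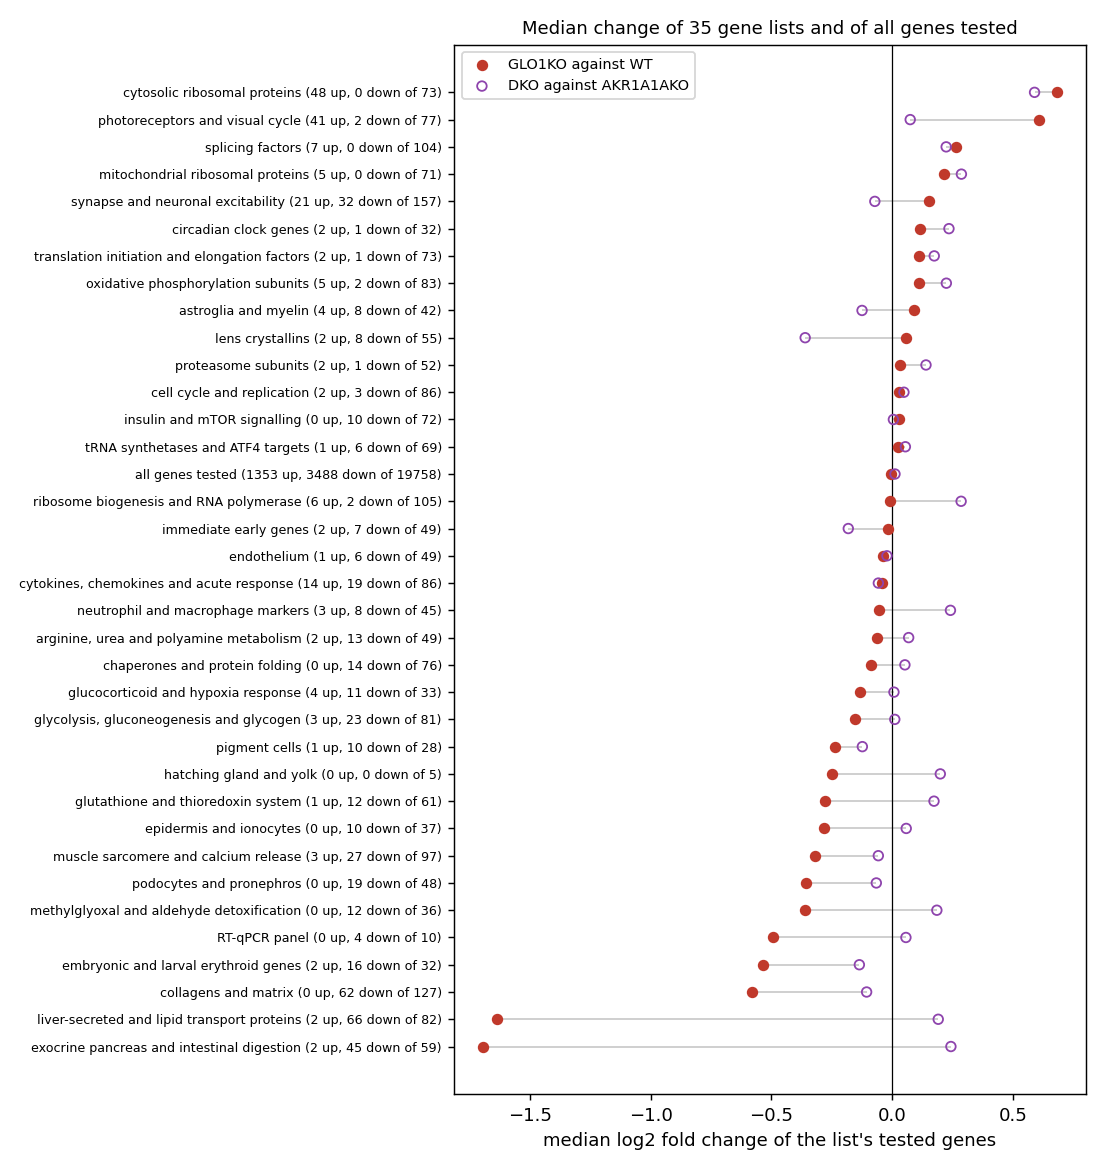
Median log2 fold change of the tested genes of 35 lists and of all genes, in GLO1KO against WT (filled) and in DKO against AKR1A1AKO larvae (open), with the number of genes called higher and lower in GLO1KO against WT beside each name. The points of the ribosomal list lie close together (0.68 and 0.59), and those of the liver list lie far apart (-1.64 and 0.19).

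Genes that sit beside glo1 on the chromosome were looked at because a line bred for a mutation also carries its surroundings. Among the 25 genes annotated on each side of glo1 in the order of a later assembly, 25 of 50 matched a listed gene by symbol and 24 were tested. Of these 4 rose and 5 fell (37.5% called, against 24.5% of all genes). The share was 30.8% with 50 genes and 34.6% with 100 genes on each side. si:dkeyp-2e4.3 ran from 0.428 to 0.967 CPM (median 0.730) in WT and from 4.23 to 6.27 CPM (median 5.35) in GLO1KO larvae, a log2 fold change of 2.93 ± 0.174 (SE, adjusted p = 2.60e-08), and rose by 2.41 in DKO against AKR1A1AKO. The next gene, si:dkeyp-2e4.2 (ENSDARG00000079263), rose by 0.84 at under 1 CPM, and ZBTB8OS (ENSDARG00000016368), of the tRNA ligase complex, by 0.75. MDGA1 (ENSDARG00000074376) and CDH23 (ENSDARG00000007561), both adhesion genes, fell by 1.3 and 0.92. Whether these genes responded to the loss of glo1 or to a linked difference cannot be told apart within these lines.

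Whether the same genes changed when akr1a1a was lost as well was asked by comparing DKO with AKR1A1AKO larvae, which shares no library with the comparison of GLO1KO with WT. There 743 genes rose and 1602 fell of 19745 tested (11.9%). Of the 1353 genes that rose in GLO1KO larvae 1339 were tested there, and 223 (16.7%, against 3.76% of all genes) rose again. Of the 3488 genes that fell 3431 were tested, and 1166 (34%, against 8.11%) fell again while 125 rose. Seen from the other side, 30.0% of the genes that rose and 72.8% of those that fell in DKO against AKR1A1AKO were called in the same direction in GLO1KO against WT. Of all genes tested in GLO1KO against WT, 6.85% rose and 17.7% fell.

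For the genes that rose, the comparison that chose them had the larger median change. For those that fell, GLO1KO against WT had the larger median fall under either choice. The median log2 fold change of the genes that fell in GLO1KO was -0.99 against WT and -0.40 in DKO against AKR1A1AKO, and for the genes that rose the medians were 0.75 and 0.30. For the 1586 genes chosen because they fell in DKO against AKR1A1AKO, the medians were -0.82 there and -0.86 in GLO1KO against WT, and for the 724 chosen because they rose 0.76 and 0.25. Values in the comparison that did not choose the genes are expected to lie nearer 0, so these medians are given as a description. The genes chosen by their fall in DKO against AKR1A1AKO were the exception, at -0.82 and -0.86. A test of the difference between the effects, the interaction of both genotypes over 23 libraries, called 2689 of 20136 genes (13.4%), of which 2055 had a higher value with akr1a1a lost (10.2%) and 634 a lower one (3.15%).

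**Figure D4:**
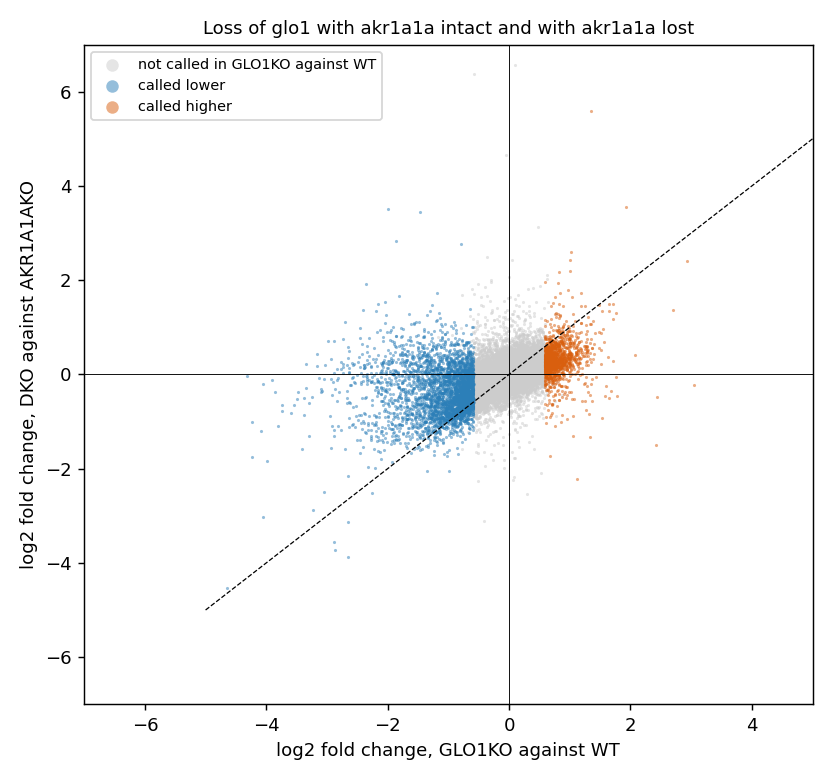
Log2 fold change of each gene upon loss of glo1, with akr1a1a intact (GLO1KO against WT, x axis) and with akr1a1a lost (DKO against AKR1A1AKO, y axis), for 19595 genes and with 1 gene outside the axes. The genes that fell in GLO1KO (blue) have a median of -0.99 on the x axis, which chose them, and of -0.40 on the y axis, and the dashed line marks equal change.

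The gene lists divided along the same lines. The ribosomal list kept its rise, with 37 of 73 genes higher in DKO against AKR1A1AKO, where 3.76% of all genes were. Its median was 0.59 and no gene was called in the interaction. A call there asks for a difference above 0.585 on the log2 scale, close to the whole rise, so the lack of calls does not show equal rises. The differences of rplp2 and RPL31 were -0.34 and -0.22 (adjusted p = 0.00262 and 0.0233, quasi-likelihood test of the interaction). For RPS28 and RPL38 they were -0.13 and -0.09 (adjusted p = 0.231 and 0.642). AKR1A1AKO libraries, with glo1 intact, were also above every WT library in the summed level, at 58410 to 67690 CPM against 49320 to 53830 CPM. RPS28, at a log2 fold change of 0.91 in DKO against AKR1A1AKO, was 402 to 469 CPM in AKR1A1AKO and 739 to 865 CPM in DKO larvae, against at most 381 CPM in WT. eif2ak2, SLC7A5, SYT2 and SLC6A11 likewise fell on both backgrounds, the last 3 by 1.11, 1.33 and 1.22 in DKO against AKR1A1AKO, and none of the 4 was called in the interaction. For eif2ak2, SLC7A5 and SLC6A11 AKR1A1AKO libraries were also below every WT library, whereas for SYT2 these ranges overlapped.

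As lists, the liver and digestive genes did not keep their fall. In DKO against AKR1A1AKO, where 3.76% of all genes rose and 8.11% fell, 10 of 80 tested liver genes rose and 4 fell. Their median was 0.19. Of 59 digestive genes 19 rose and 3 fell, with a median of 0.24. The interaction called 66 liver and 43 digestive genes, all with a higher value in the DKO comparison, as 10.2% of all genes had. Several of the genes that fell most in GLO1KO larvae, however, fell again in DKO against AKR1A1AKO. The log2 fold changes there were -1.75 for ces2b, -0.82 for NPC1L1, -0.78 for LCT and -0.65 for A1CF. DGAT2, vwa11, si:ch1073-13h15.3 and acanb were also called lower there, whereas cfhl2, SLC28A2 and ENSDARG00000070918 were not called. tfa was at 138 to 405 CPM in AKR1A1AKO and 195 to 440 CPM in DKO larvae, ranges that overlapped with each other and lay below the 494 CPM of the lowest WT library. So AKR1A1AKO larvae, too, were below WT in this gene before glo1 was lost. A direct comparison of GLO1KO with AKR1A1AKO larvae called 9.11% of genes, 2.64% higher and 6.47% lower. In it GLO1KO larvae were lower in tfa by 0.86 on the log2 scale and in CYP7A1 by 1.14 (adjusted p = 0.0165 and 1.76e-04). For fabp10a the value was -0.52 (adjusted p = 0.121), which was not called.

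The photoreceptor list behaved in a similar way with the opposite sign. In DKO against AKR1A1AKO 6 of 77 genes rose and 3 fell (beside 3.76% and 8.11% of all genes), with a median of 0.08. In the interaction 31 genes had a lower value there, as 3.15% of all genes had. saga was 158 to 196 CPM in AKR1A1AKO and 157 to 195 CPM in DKO larvae, above every WT library, and its value in GLO1KO against AKR1A1AKO was 0.14 (adjusted p = 0.0932). CABP4 and pde6ha, however, rose on both backgrounds, by 1.13 and 0.93 in DKO against AKR1A1AKO. For the collagens and matrix list the median was -0.11, with 12 of 127 genes lower and 3 higher. The interaction called 56 of its genes, all with a higher value in the DKO comparison, as 10.2% of all genes had. COL4A1, COL4A2, FMOD and acanb, however, fell again in DKO against AKR1A1AKO, by 0.91, 1.11, 1.19 and 1.58. The falls of col8a1a and VTN there, by 0.57 and 0.60, were not called.

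For cxcl8b.1, MMP9 and tgm5l every GLO1KO library lay above every library of the other 3 genotypes. MMP9 was 2.82 to 6.09 CPM in AKR1A1AKO and 2.72 to 3.61 CPM in DKO larvae, against at least 11.9 CPM in every GLO1KO library. The interaction was -2.90 for MMP9, -3.25 for cxcl8b.1 and -1.82 for tgm5l, and against AKR1A1AKO larvae GLO1KO larvae were higher by 2.16, 3.05 and 1.73 (adjusted p = 3.73e-05, 3.59e-04 and 0.00101).

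Among the 5 genes chosen for the largest interactions, 3 were lower in every AKR1A1AKO library than in any library of the other genotypes. SMC1A (ENSDARG00000055754), a cohesin gene, was at 8.78 to 13.5 CPM in WT, 5.73 to 10.6 CPM in GLO1KO and 5.98 to 10.6 CPM in DKO libraries, but at 0 to 0.465 CPM in AKR1A1AKO libraries. loc101882496 (ENSDARG00000098256) was at 0.201 to 2.07 CPM in AKR1A1AKO and at least 5.96 CPM in every library of the other genotypes. The clone-named gene ENSDARG00000094518 rose in GLO1KO against WT by 1.35 on the log2 scale and was at 0 to 0.137 CPM in AKR1A1AKO and 1.87 to 3.78 CPM in DKO libraries, against 0.805 to 2.4 CPM in WT. DKO libraries thus lay near the WT range for SMC1A, and the interactions of these 3 genes rest on the AKR1A1AKO libraries. The bile salt-activated lipase gene CEL (ENSDARG00000029822) fell by 2.36 in GLO1KO against WT and rose by 1.92 in DKO against AKR1A1AKO. Its AKR1A1AKO libraries, at 0.629 to 1.9 CPM, also lay below every WT library (2.91 to 12.5 CPM) and every DKO library (3.65 to 6.8 CPM). ENSDARG00000070918, which fell by 4.06 in GLO1KO larvae, had -0.21 in DKO against AKR1A1AKO. It was at 0.383 to 1.47 CPM in AKR1A1AKO libraries, below the 1.79 CPM of the lowest WT library.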

How the data were processed

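Total RNA of 23 clutches was made into strand-specific mRNA libraries and sequenced on the DNBseq platform. The authors filtered the reads, aligned them with HISAT2 to GRCz11 and counted them per gene with featureCounts (version 2.0.3). They deposited these estimated counts without normalization, and 94 genes (0.411%) with values that were not whole were rounded. The annotation release, the strand setting and the treatment of multiple alignments are not given in the sources used here. Symbols came from a table of gene names that covered 20170 genes (88.2%), some with the capitals of another species.

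Pairs of groups were tested by edgeR's quasi-likelihood method (edgeR 4.0.16, R 4.3.3) after filterByExpr and TMM scaling, with p adjusted over all genes tested by the Benjamini-Hochberg method. The method gives no standard error. Each SE was derived as the size of the log2 fold change divided by the square root of the test's F statistic. The test was checked on simulated data. CPM was scaled over all 23 libraries. The interaction was fitted over 4 groups. Alternatives were DESeq2 1.42.0, limma-trend (limma 3.58.1), other scalings, no filter, other thresholds, a replicate block and each library left out. Leaving out WT replicates 1 and 2 together, or GLO1KO replicates 1 and 4, was chosen after seeing the data. Members and lists were chosen with earlier results of these data known. A rule named 163 genes: glo1, the 12 genes that rose most and the 12 that fell most among those with a symbol, a mean log2 CPM above 1 and ranges apart, 4 called members per list with a mean log2 CPM above 0, the RT-qPCR panel, up to 5 genes near glo1 and 5 interactions. A further 14 were named after their values were seen, which were HAGH, c3a.4, il1b, mmp13a, nfkb1, RELA, COL4A1, COL4A2, INSM1, NEUROD1, prss59.1, fabp10a, fabp10b and tfa. Replicates were separate clutches of larvae. The level of akr1a1a was not analysed here, and 1 gene of the panel is not reported here.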

Additional observations from a re-analysis of the deposited data

Results flagged for a closer look

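Within a genotype, the lowest or highest library stood far from the other 5 in 35 of 426 groups of 6 libraries checked (8.22%), where chance gives about 1 in 20 groups, or 21.3. WT replicate 1 was the high library in many of them. In CPM, each beside the value of the nearest other WT library, it was highest for eif2ak2 at 4.78 against 3.18, csf1ra at 11.3 against 6.9, FMOD at 9.09 against 4.39, JPH1 at 22.1 against 17.4, AQP4 at 5.76 against 4.36, tfr1a at 33.5 against 22.1, SLC4A1 at 6.24 against 3.23 and tfr1b at 130 against 102. It was likewise highest for CCND2 (ENSDARG00000051748) at 15.3 against 11.6, CCND2 (ENSDARG00000070408) at 7.6 against 4.7, KDR at 7.3 against 5.18, DSP at 74.3 against 52.5, ca15a at 20.3 against 9.34, EGLN2 at 7.67 against 5.49, COL4A1 at 43.9 against 26.8 and COL4A2 at 40.1 against 24.1.

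The other libraries that stood apart are given in the same way, in CPM with the nearest library of the group. GLO1KO replicate 1 was highest for VTN at 3.1 against 2.17, chrna7a at 0.924 against 0.582 and itih3b.1 at 1.55 against 0.747. GLO1KO replicate 2 was highest for mrpl52 at 12.8 against 10.9 and g6pc1a.1 at 2.23 against 1.78. GLO1KO replicate 3 was highest for MRPL2 at 80.8 against 77. GLO1KO replicate 4 was highest for hsp70l at 3.76 against 2.38. GLO1KO replicate 4 was lowest for TXNRD2 at 0.358 against 0.713, rbm25a at 27.3 against 35 and fabp10b at 2.66 against 3.82. GLO1KO replicate 5 was lowest for rplp2 at 759 against 847 and eif2ak2 at 0.142 against 0.407. GLO1KO replicate 6 was highest for NEUROD1 at 293 against 267. GLO1KO replicate 6 was lowest for NPC1L1 at 0.378 against 0.798 and SAT1 at 9.71 against 14.5. WT replicate 3 was highest for POLR2K at 6.33 against 5.08. WT replicate 3 was lowest for zgc:194659 at 0.894 against 1.8 and si:ch73-308m11.1 at 2.94 against 6.77. WT replicate 5 was lowest for chrna7a at 0.925 against 1.51.

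The effect of losing glo1 differed between the backgrounds in 93 of the named genes, by the interaction test over 23 libraries (edgeR's quasi-likelihood test). Values are the log2 fold change in DKO against AKR1A1AKO minus that in GLO1KO against WT, so that a positive value means a smaller fall, or a larger rise, where akr1a1a was lost. Most of these genes were named for a large change in GLO1KO against WT, which is part of this difference, so the balance of signs is no result. Lower values were found for cxcl8b.1 at -3.25, MMP9 at -2.90, zgc:194659 at -1.65, tgm5l at -1.82, si:ch73-308m11.1 at -1.44, si:dkey-97i18.5 at -2.03, si:ch211-202f3.3 at -1.29, GUCA1A at -1.51, saga at -1.31, il1b at -1.46 and mmp13a at -1.93. Among liver and digestive genes and the genes that fell most, the values were ces2b at 2.5, DGAT2 at 3.24, vwa11 at 2.89, ENSDARG00000070918 at 3.86, cfhl2 at 3.80, si:ch1073-13h15.3 at 3.11, LCT at 2.97, NPC1L1 at 2.79, A1CF at 2.89, SLC28A2 at 2.89, SLC15A1 (ENSDARG00000044528) at 2.57, cela1.4 at 2.72, SLC15A1 (ENSDARG00000100315) at 2.90, itih3b.1 at 3.60, CYP7A1 at 2.43, itih3b.2 at 3.03, prss59.1 at 2.87, fabp10a at 2.2 and tfa at 2.68. Among genes of metabolism, detoxification and stress they were aldh3a2b at 1.13, ALDH8A1 at 1.96, ptgr1.2 at 2.74, ggt1b at 2.95, gstp1.1 at 2.73, TXNRD2 at 0.92, SOD3 at 1.14, NOB1 at 0.61, STC2 at 3.22, SHMT2 at 0.76, CBS at 1.22, BAG2 at 1.45, pdia2 at 2.17, hsp90aa1.1 at 1.05, g6pc1a.1 at 2.49, GYS2 at 2.37, PCK1 at 2.31, UGP2 at 1.09, PRKAA2 at 0.77, HNF4A at 1.09, shc2 at 0.71, GLS2 at 1.61, AGMAT at 1.74, CKB at 1.54, SAT1 at 1.16, ARG1 at 0.91, ASS1 at 0.72 and SLC2A2 at 1.64. Among matrix and muscle genes they were acanb at 1.85, FMOD at 1.71, col8a1a at 2.27, VTN at 2.08, TNNI2 at 3.07, MYOM1 at 0.80, JPH1 at 0.74, tnnc1a at 1.61, COL4A1 at 1.1 and COL4A2 at 0.99. In the remaining lists they were cfb at 2.17, c3a.1 at 2.31, csf1ra at 0.85, il6r at 1.76, CLDN19 at 0.67, AQP4 at 0.89, tfr1a at 1.66, SLC4A1 at 1.58, tfr1b at 1.42, SLC20A1 at 1.23, CDH17 at 1.36, atp1a1a.4 at 1.07, XDH at 1.62, BCO1 at 1.18, krt93 at 3.27, DSP at 0.65, ca15a at 1.23, loxl2a at 1.34, SLC2A1 at 0.61, igfbp1b at 1.15 and RELA at 1.00. The largest were SMC1A at 6.96, loc101882496 at 4.72, CEL (ENSDARG00000029822) at 4.28 and ENSDARG00000094518 at 4.26. In each of these the AKR1A1AKO libraries lay below every WT and DKO library.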

How the results depend on the processing

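With the threshold of 1.5 removed, 6036 genes were higher and 6424 lower in GLO1KO against WT, 3992 and 4125 in DKO against AKR1A1AKO, and 3419 and 2990 in the interaction. With a fold change above 2, 226 genes were higher and 1726 lower in GLO1KO against WT. With scaling by library size alone, 761 genes were higher in GLO1KO against WT and 426 in DKO against AKR1A1AKO. The other tools gave 1352 to 1370 higher and 3395 to 3468 lower genes. Leaving out each library in turn gave 1177 to 1554 higher and 3201 to 3631 lower genes in GLO1KO against WT, 664 to 814 and 1427 to 1709 in DKO against AKR1A1AKO, and 1735 to 2272 and 524 to 792 in the interaction. Without WT replicates 1 and 2, a choice made after seeing the data, 1055 genes were higher and 3028 lower, of which 967 and 2896 were shared with the calls from all 12 libraries. Without GLO1KO replicates 1 and 4, likewise chosen, 1343 were higher and 3531 lower, with 1215 and 3264 shared.

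The labels do not say whether equal replicate numbers of WT and GLO1KO belong together. Correlations of same-numbered deviations ran from -0.138 to 0.225. The summed CPM of the liver list was highest in replicate 1 and lowest in replicate 6 of both genotypes, at 13990 and 5615 in WT and 3371 and 1871 in GLO1KO. Whether the numbers follow a shared order was not tested. A fit with the replicate number as a block called 1371 genes higher and 3436 lower.

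Of the 177 named genes, 166 kept their side of the threshold with scaling by library size alone, 167 without WT replicates 1 and 2, and 172 to 176 when 1 library was left out. The direction turned for loc101882496, which was not called, with values from -0.163 to 0.093 when 1 library was left out, above 0 without WT replicate 3 or GLO1KO replicate 5 or 6. With scaling by library size alone the list medians turned to -0.0169 for oxidative phosphorylation, -0.0142 for translation factors and -0.0131 for clock genes. The median of the 5 hatching gland and yolk genes ran from -0.381 to 0.169 when 1 library was left out and was 0.27 without WT replicates 1 and 2. The cause was not tested. Genes under about 1 CPM, such as c3a.4, rest on few counts.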

Other observations

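Gene families picked by their symbols, after the values were known, showed where other genes that fell belonged. Of 373 tested solute carrier genes 128 fell and 10 rose (37% called, against 24.5% of all genes), with a median log2 fold change of -0.34. Cytochrome P450 genes, which oxidize drugs, steroids and lipids, had 40 of 70 lower and 4 higher, with a median of -0.81. Of the conjugating enzymes, 20 of 24 UDP-glucuronosyltransferase genes fell, with a median of -1.18, and 10 of 15 sulfotransferase genes, with a median of -1.26, and none rose in either family. In DKO against AKR1A1AKO, 4 P450 genes rose and 4 fell, 1 glucuronosyltransferase gene rose and 4 fell, and 2 sulfotransferase genes rose. There 3.76% of all genes rose and 8.11% fell. Of 111 potassium channel genes 37 fell and 7 rose in GLO1KO larvae, beside 17.7% and 6.85% of all genes. In DKO against AKR1A1AKO 28 of them fell and 2 rose, with a median of -0.30. G protein gamma subunit genes went the other way, with 8 of 14 higher (against 6.85% of all genes), none lower and a median of 0.66. In DKO against AKR1A1AKO 2 of these rose. Hox genes, with 3 of 46 lower and 1 higher, and zinc finger genes, with 17 of 158 lower and 4 higher, stood below the share of all genes.

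There were 4 genes with at least 10 counts in every WT library and at most 3 in every GLO1KO library, and none with the reverse. zgc:171534 had 33 to 157 counts in WT, 0 in every GLO1KO library, 59 to 162 in AKR1A1AKO and 0 to 118 in DKO libraries. The endoderm and heart transcription factor gene gata4 had 16 to 202 counts in WT, 0 to 2 in GLO1KO, 3 to 23 in AKR1A1AKO and 2 to 16 in DKO libraries. si:dkeyp-73d8.9 had 14 to 94 counts in WT, 0 to 1 in GLO1KO, 0 to 3 in AKR1A1AKO and 0 to 343 in DKO libraries. The complement factor H-like gene cfhl5 had 10 to 47 counts in WT, 0 to 3 in GLO1KO, 2 to 14 in AKR1A1AKO and 0 to 7 in DKO libraries.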
